A study of Ovis aries and Bos taurus with 10 samples.

Results

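The receptors of the bone morphogenetic protein (BMP), activin and transforming growth factor beta (TGF-beta) family were examined in the follicles of newborn lambs and in fetal ovaries. The genes asked for were BMPR1A, BMPR1B, ACVR1, TGFBR1, BMPR2, ACVR2A, ACVR2B, TGFBR2 and AMHR2, and their probe sets were taken by the symbol that the array annotation gives them. Of these 9 genes, 8 had a probe set with their symbol, among 9155 genes on the array, and AMHR2, the receptor of anti-Mullerian hormone, was not among the annotated symbols and was not analysed here. The 8 genes were read by 14 of 24016 probe sets. BMPR2 had 3 probe sets, BMPR1A, BMPR1B, ACVR1 and TGFBR2 had 2 each, and ACVR2A, ACVR2B and TGFBR1 had 1 each.

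Ligands of this family signal through a complex of type I and type II receptors, which are both serine/threonine kinases. The type II receptor binds the ligand and phosphorylates the type I receptor, which then phosphorylates SMAD proteins that enter the nucleus. In the ovary the oocyte secretes GDF9 and BMP15, members of the family that act on the surrounding granulosa cells (GC), and GC in turn make inhibins, activins and follistatin. BMPR1B is a type I receptor known from the Booroola sheep, in which a change in the gene raises the ovulation rate.

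The 6 LCM conditions came from ovaries of newborn lambs (under 1 day old), in which oocytes and GC were cut from frozen sections by laser capture microdissection (LCM). There was 1 array for each compartment of primordial, primary and secondary follicles: PDO, PMO and SECO for oocytes, PDG, PMG and SECG for GC. The RNA of an array was pooled from 2 animals for primordial and secondary follicles and from 4 animals for primary follicles. Another 4 arrays held whole fetal ovary: ovine ovary at 132 days post coitum labelled by protocols P1, P2 and P3, and bovine ovary at 8 months post coitum labelled by P1. P1 is the standard labelling with 1 round of amplification, P2 adds a double amplification before the same labelling, and P3 combines the double amplification with another biotin labelling kit. The LCM arrays were made with P3. All 10 arrays were of 1 bovine design, so 9 of them measured sheep RNA on bovine probes, and no condition had a replicate array.

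Signals were MAS 5.0 intensities that the authors scaled to a trimmed mean of 100 on each array. A probe set is called detected here when it lies among the brightest probe sets of its array, in the percentage of present calls given for that array, and the dimmest of these sets the detection limit. The limits lay between 45.8 and 74.2 on the LCM arrays, at 32.1, 44.7 and 42.3 on the ovine ovary arrays under P1, P2 and P3, and at 28.9 on the bovine array. Receptor signals were compared only within a probe set, across arrays, because probes differ in affinity. Marker lists are given as sums over probe sets, in which the brightest probe sets weigh most.

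Markers of each compartment were also detected on arrays of the other. Oocyte markers such as ZP3 and GDF9 were detected on all 6 LCM arrays, with summed signals of 2793 to 7940 in oocytes and 3057 to 5680 in GC, which overlapped. Granulosa markers summed to 2390 to 2715 in oocytes and 3898 to 12805 in GC, which did not overlap, but GJA1 carried most of the sum: without it the sums were 307 to 657 in oocytes and 423 to 2895 in GC, which overlapped. Of the other granulosa markers, AMH, FOXL2, FSHR, CYP19A1 and KITLG were not detected on any LCM array. CDH2 was detected on PDG, PMG and SECG alone and HSD17B1 on PMG and SECG alone. FST and INHA were detected on PMO besides GC arrays, and GATA4 and NR5A1 on all 6 arrays. Fewer cells of a type and less RNA per cell cannot be told apart in such captures. By quantitative PCR of its LCM samples, small antral follicles included, the paper reported significant compartment differences for GDF9, BMP15, AMH and GATA4. How far the overlap of array signals reflects mixed captures was not tested.

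Receptor detection depended on the sample and the protocol. In whole ovine ovary under P1, 11 of the 14 probe sets and 8 of 8 genes were detected, against 49.9% of all probe sets. In bovine ovary under P1 the counts were 10 of 14 probe sets and 7 of 8 genes, against 57.2% of all probe sets. On each LCM array 2 or 3 of the 14 were detected, against 29.4% to 36.5% of all probe sets, and 4 of 14 were detected on at least 1 LCM array, beside 48.5% of all probe sets. These 4 belonged to ACVR1, TGFBR2 and BMPR2. Under the stricter rule that all probe sets of a gene be detected on the same array, chosen after the data were seen, 1 of these 3 genes remained, ACVR1 on PDO. Another 3 of the 14 probe sets, 1 of BMPR1B and 2 of BMPR2, were not detected on any of the 10 arrays.

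**Figure D1:**
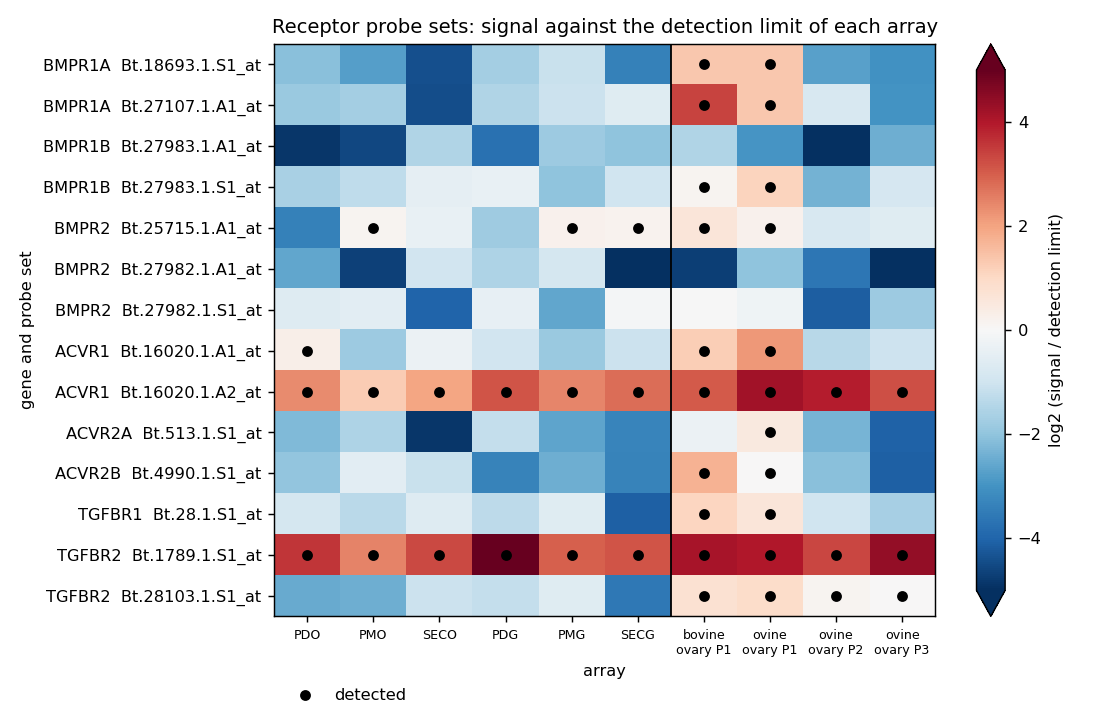
Signal of the 14 receptor probe sets (rows) on the 10 arrays (columns; LCM arrays left of the line, whole fetal ovary right of it), as log2 of the signal over the detection limit of the array; black dots mark detected probe sets. Dots fill 11 rows under ovine P1 and 3 rows under P2 and P3, and on the LCM arrays they lie in rows of ACVR1, TGFBR2 and BMPR2.

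Among the type I receptors, BMPR1A, a receptor for BMP2 and BMP4, had signals in ovine ovary under P1 of 82.8 (Bt.18693.1.S1_at) and 81.3 (Bt.27107.1.A1_at). In bovine ovary the same probe sets read 72.7 and 299.6. The first probe set differed by 0.15 on the log2(signal + 20) scale, ovine minus bovine, and the second by -1.66, so the 2 probe sets of this gene did not give the same species difference.

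BMPR1B was read by Bt.27983.1.S1_at at 68.9 in ovine and 32.1 in bovine ovary under P1, both above the limits. Its other probe set, Bt.27983.1.A1_at, was under the limit on all 10 arrays, with signals of 0.6 to 23.5. ACVR1, a type I receptor for BMPs and activins, was read at 582.8 in ovine and 240.9 in bovine ovary by Bt.16020.1.A2_at and at 145.4 and 68.1 by Bt.16020.1.A1_at. Both ACVR1 probe sets were therefore brighter in sheep, by 1.21 and 0.91 on the log2(signal + 20) scale. TGFBR1, the type I receptor for TGF-beta, read 48.8 in ovine and 60.3 in bovine ovary, a difference of -0.22.

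Among the type II receptors, TGFBR2, which binds TGF-beta, read 510.9 in ovine and 507.9 in bovine ovary (Bt.1789.1.S1_at), a difference of 0.01, and its other probe set (Bt.28103.1.S1_at) read 60.0 and 48.6. The activin receptor ACVR2A read 45.0 in ovine ovary and 23.4, under the limit, in bovine ovary, so its signal was at least 1.56-fold higher in sheep. ACVR2B, the other activin receptor, ran the other way, at 32.1 in sheep, exactly at the limit and counted as detected, and 95.3 in cattle. BMPR2, the type II receptor for BMPs and for GDF9 and BMP15, was detected in both species by Bt.25715.1.A1_at, at 36.9 and 44.2, and in neither by its other 2 probe sets.

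Folds between ovine and bovine ovary were counted on the log2(signal + 20) scale by the brightest probe set of each gene. In ovine ovary 1 of 8 genes (ACVR1) was more than 2-fold higher and 2 of 8 (BMPR1A and ACVR2B) more than 2-fold lower. Of all genes, 30.9% were past 2-fold in either direction. BMPR1B, at an ovine over bovine signal ratio of 2.15, differed by 0.77 on this scale and was not counted. With an added constant of 1, 4 of 8 genes were past 2-fold between the ovine and bovine arrays. The ages and animals of these 2 arrays differed as well as the species, and the sheep RNA was read on bovine probes. Species, age, animal and the match of RNA to probe cannot be told apart, so these are differences of signal.

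The same ovine ovary tissue gave a different picture after double amplification. Of the 11 probe sets detected under P1, 3 were detected under P2 and the same 3 under P3: both TGFBR2 probe sets and the brighter one of ACVR1. Among all probe sets detected under P1, 71.4% were detected under P2 and 69.3% under P3. The 8 receptor probe sets lost under P3 had P1 signals of 32.1 to 145.4, and among all probe sets detected in that range of P1 signals 54.6% were detected under P3. The range was set by the lost probe sets themselves, so this share is a description and no test. The dimmer TGFBR2 probe set, at 60.0 under P1, lay in the same range and was kept under P3.

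For ACVR1, Bt.16020.1.A2_at read 582.8, 679.8 and 390.2 under P1, P2 and P3, and stayed far above the limits. Bt.16020.1.A1_at of the same gene read 145.4, 17.2 and 20.9, so it was at least 3.44-fold lower under P3 than under P1. The 2 probe sets of this gene thus moved unequally between protocols.

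BMPR1A fell under the limit by both probe sets, from 82.8 under P1 to 6.8 under P2 and 5.2 under P3, and from 81.3 to 26.0 and 5.3. These were at least 1.96-fold and 1.92-fold lower under P3. For BMPR1B the readings of Bt.27983.1.S1_at were 68.9, 8.8 and 23.4, at least 1.63-fold lower under P3.

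The dimmer genes left smaller bounds. TGFBR1 read 48.8, 22.3 and 13.3, at least 1.15-fold lower under P3, and ACVR2A read 45.0, 8.9 and 2.6, at least 1.06-fold lower. ACVR2B read 32.1, 10.4 and 2.5, and BMPR2 (Bt.25715.1.A1_at) read 36.9, 26.0 and 27.7. For these 2 genes the P1 signal was under the P3 limit, so no fold can be given.

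TGFBR2 was kept. Its brighter probe set read 510.9, 456.3 and 887.2 under P1, P2 and P3 and its dimmer one 60.0, 49.1 and 42.6, the last just above the limit of 42.3. The log2(signal + 20) difference of P3 from P1 was 0.77 for the first and -0.35 for the second.

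Over the 11 detected probe sets the median difference was -1.05 for P3 minus P1 and -0.78 for P2 minus P1, against medians of -0.22 and -0.09 over all probe sets detected on either array of the pair. Both comparisons share the P1 array. By the brightest probe set, 5 of 8 genes (BMPR1A, BMPR1B, ACVR2A, ACVR2B and TGFBR1) were more than 2-fold lower under P3 and 0 of 8 were more than 2-fold higher, beside 19% of all genes lower and 16.8% higher. These folds rest on the added constant, since P3 signals under the limit have no order; with a constant of 50, 1 of 8 genes was past 2-fold.

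**Figure D2:**
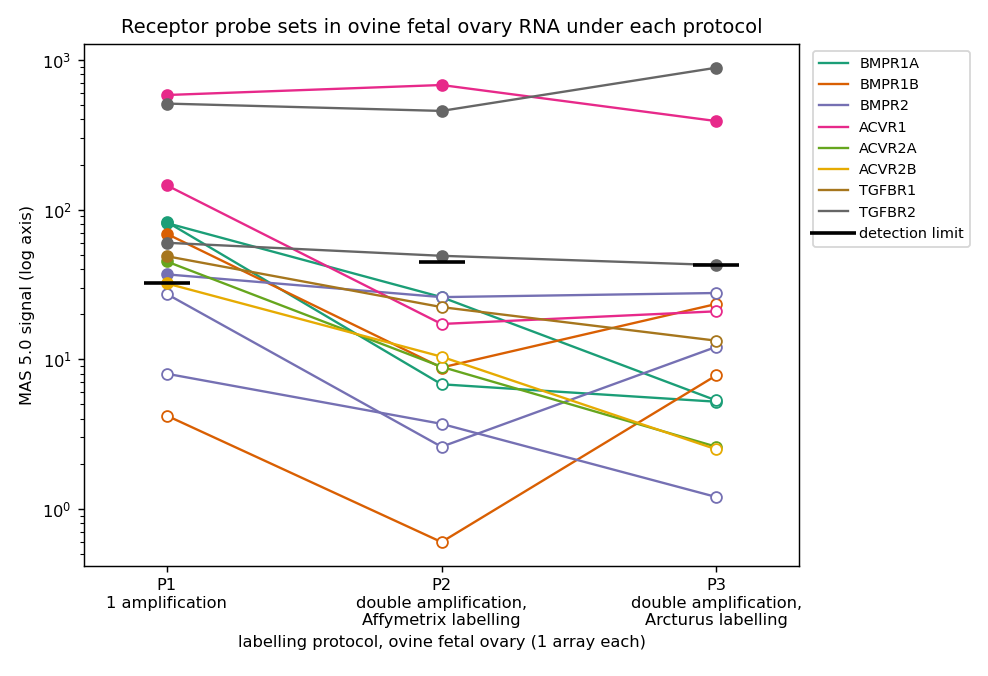
Signals of the 14 receptor probe sets (log axis) in ovine fetal ovary labelled by P1, P2 and P3, 1 array each; filled points are detected, open points are not, and black bars are the detection limits. The 2 TGFBR2 probe sets and 1 ACVR1 probe set stay filled under P2 and P3, and the 8 others detected under P1 are open there.

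The LCM arrays were made with P3 as well, from other tissue and less RNA. Of the 3 receptor probe sets kept under P3, 2 were detected on at least 1 LCM array, beside 94.6% of all probe sets detected under P3. That share also counts probe sets detected under P3 and not under P1. Of the 8 lost under P3, 2 were detected on at least 1 LCM array, beside 39.5% of all probe sets detected under P1 and not under P3. Of the 11 detected under P1 this made 4, beside 78.6%. The probe set kept under P3 and detected on no LCM array was the dimmer one of TGFBR2. A receptor under the limit on the LCM arrays was not detected at these limits, and its absence from oocytes or GC was not shown. The part of the protocol in these counts was not tested.

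BMPR1B was under the limit on all 6 LCM arrays. Bt.27983.1.S1_at read 17.0, 30.5 and 49.8 on PDO, PMO and SECO and 35.7, 18.0 and 24.9 on PDG, PMG and SECG. The signal of 49.8 on SECO was under a limit there of 67.6. Being under the limits, the 6 signals have no order between compartments or stages.

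BMPR1A was also undetected on the LCM arrays. Its probe sets read 3.2 to 12.3 (Bt.18693.1.S1_at) and 3.1 to 22.8 (Bt.27107.1.A1_at) in oocytes, and 4.8 to 33.5 and 16.0 to 34.7 in GC, all under the limits. TGFBR1 read 28.4, 29.3 and 43.1 in primordial, primary and secondary oocytes and 18.6, 47.1 and 3.0 in GC. None of these signals can be ordered, since values under the limit are not measured.

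The activin type II receptors were undetected too. ACVR2A read 11.4, 25.2 and 2.3 in oocytes and 19.9, 11.6 and 5.1 in GC. ACVR2B read 13.5, 52.2 and 31.6 in oocytes and 4.6, 13.3 and 5.0 in GC, with all 6 under the limits.

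ACVR1 was detected on all 6 LCM arrays by Bt.16020.1.A2_at, and every GC signal was above every oocyte signal. The oocyte signals were 268, 178 and 266 on PDO, PMO and SECO, and the GC signals were 408, 392 and 344 on PDG, PMG and SECG. The means were 237 ± 51.5 (SD, n = 3 stages) and 381 ± 33.1, and GC was higher by 1.52, 2.20 and 1.29-fold at the primordial, primary and secondary stage. Among all probe sets tested, 7.71% had all 3 GC signals above all 3 oocyte signals.

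The oocyte minus GC difference of ACVR1 was -0.66 ± 0.32 (SE) on the log2(signal + 20) scale in a limma fit with compartment and stage over 11642 probe sets, with an adjusted p of 0.483, so it did not pass the threshold. The other probe set of the gene, Bt.16020.1.A1_at, was detected on PDO alone. Its primordial pair ran the opposite way, at 64.5 on PDO and 23.7, under the limit, on PDG. The primary and secondary signals, 20.8 and 55.2 in oocytes and 19.8 and 23.4 in GC, were under the limits and have no order. With the mean of both probe sets the difference of ACVR1 was -0.03, which rests partly on these unmeasured signals.

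TGFBR2 was likewise detected on all 6 LCM arrays by Bt.1789.1.S1_at. The oocyte signals were 622, 412 and 659 on PDO, PMO and SECO, and the GC signals were 1714, 572 and 438 on PDG, PMG and SECG. PDG was the highest and PMO the lowest of the 6, and the compartments overlapped. The oocyte minus GC difference was -1.43 at the primordial, -0.45 at the primary and 0.57 at the secondary stage, so the order of the compartments turned. Over the stages it was -0.44 ± 0.42 (SE; limma adjusted p = 0.720), and without the primordial stage it was 0.057. The dimmer TGFBR2 probe set, detected on all 4 whole ovary arrays, was under the limit on all 6 LCM arrays, at 4.2 to 47.4.

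Summed markers of stroma, endothelium and smooth muscle were also highest on PDG, while those of theca, leukocytes and red blood cells were highest on SECO, at 331, 646 and 4488. The 9 stromal genes, detected 8 of 9 there, summed to 47328 on PDG and to 4639 to 29830 on the other LCM arrays, led by COL3A1 and COL1A2. PDG was the highest array for 6 of these 9 genes, and not for TCF21, PDGFRA and PDGFRB. The 10 endothelial genes summed to 3050 on PDG and to 574 to 1412 elsewhere, and PECAM1 read 888 there against 82.8 to 322 elsewhere. PDG was the highest array for 5 of the 6 endothelial genes detected on an LCM array, and not for FLT1, at 62.3 on PDG and 108 on PMO. The endothelial VWF, TIE1, KDR and CLDN5 were under the limits on all 6 arrays. The 5 smooth muscle genes summed to 2429 on PDG and to 466 to 1421 elsewhere, with MYH11 at 1814 and TAGLN and DES under the limits. The part of these cells in the TGFBR2 signal of PDG was not tested.

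**Figure D3:**
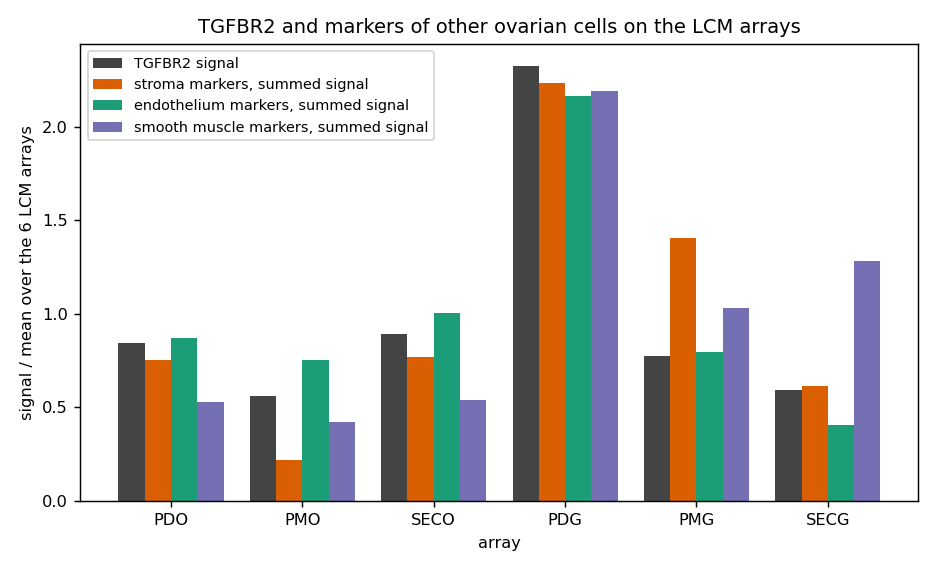
TGFBR2 signal (Bt.1789.1.S1_at) and the summed signals of stroma, endothelium and smooth muscle markers on the 6 LCM arrays, each divided by its own mean over the 6 arrays; 1 array per bar, so there is no error bar. All 4 quantities are highest on PDG. The sums of the other marker lists, not drawn, were highest on PMO (oocyte), SECG (granulosa) or SECO (theca, leukocytes and red blood cells).

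BMPR2 was detected by Bt.25715.1.A1_at on PMO, PMG and SECG. It read 5.1, 81.4 and 52.9 on PDO, PMO and SECO and 13.5, 83.3 and 56.3 on PDG, PMG and SECG. Both primordial arrays were under the limit, both primary arrays were above it, and SECO lay under its limit of 67.6. The compartments did not differ beyond the spread, with an oocyte minus GC difference of -0.17 ± 0.30 (SE; limma adjusted p = 0.858). The other BMPR2 probe sets, Bt.27982.1.A1_at and Bt.27982.1.S1_at, read 1.2 to 39.4 and 4.2 to 51.7 on the LCM arrays, all under the limits, so the stage pattern rests on 1 of 3 probe sets.

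**Figure D4:**
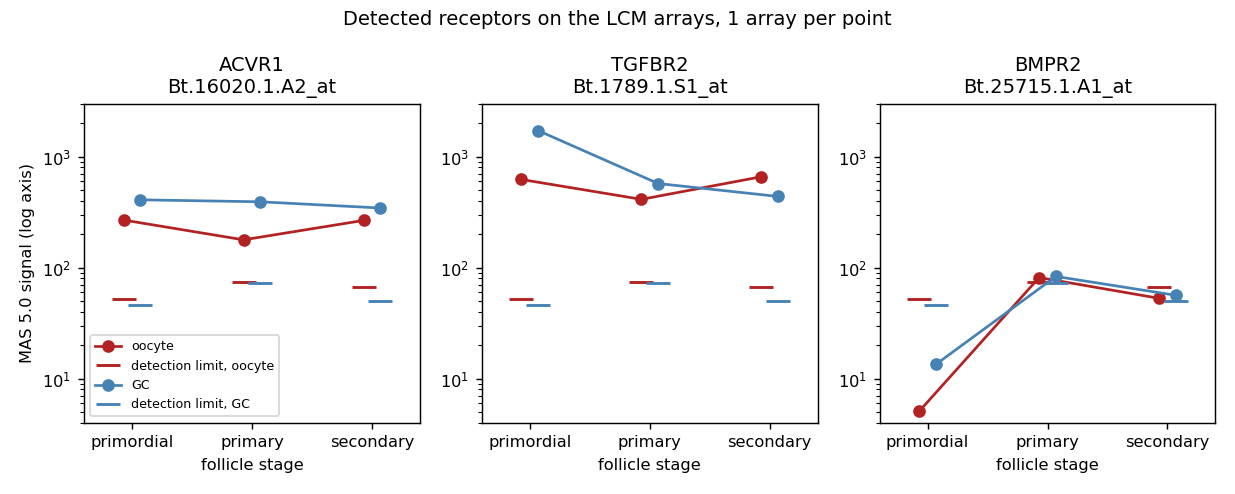
MAS 5.0 signals (log axis) of the 3 receptors detected on the LCM arrays, by follicle stage, for oocytes (red) and GC (blue), 1 array per point, with short bars for the detection limit of each array. GC lie above oocytes at all 3 stages for ACVR1, the order turns at the secondary stage for TGFBR2, and both primordial points of BMPR2 lie under the limits.

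Counting genes by sign alone, ACVR1 and BMPR2 of the 3 receptors tested had a higher GC signal at all 3 stages, beside 16.5% of all genes tested. For BMPR2 the primordial pair was under the limits on both sides. Its secondary pair has no order either, since the SECO limit of 67.6 lay above the SECG signal of 56.3. The primary pair of BMPR2, above the limits on both sides, differed by 1.02-fold. In the limma fit 0 of the 3 genes, and 0% of the 11642 probe sets, had an adjusted p under 0.05 between oocytes and GC, while 1295 probe sets had an unadjusted p under 0.05.

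Between stages, the secondary minus primordial difference of BMPR2 was 1.36 ± 0.37 (SE; limma adjusted p = 0.277). It was 0.34 with the 3 probe sets of the gene averaged and 2.57 with an added constant of 1. Since both primordial signals were under the limits, and SECO was under its limit as well, no bound is given for this pair of stages. On the primary arrays BMPR2 was just above the limits, at 1.10 times the limit on PMO and 1.15 times on PMG. Averaged over both compartments on the log2 scale, it was there at least 1.68-fold higher than on the primordial arrays, whose detection limits were taken for their signals.

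TGFBR2 was 3.92-fold lower on SECG than on PDG and 1.06-fold higher on SECO than on PDO, and its fitted stage difference over both compartments was -0.92 ± 0.52 (SE; limma adjusted p = 0.540). For ACVR1 the stage difference was -0.12 ± 0.39 (SE; limma adjusted p = 0.931). The stage contrast passed the threshold for 0 of the 3 genes and for 0% of all probe sets tested, with 1325 at an unadjusted p under 0.05. These p-values rest on how the oocyte minus GC difference varied over the stages, with 2 residual degrees of freedom. The eBayes step of limma added a prior of 5.43 degrees of freedom drawn from all probe sets tested. They do not measure the spread between animals.

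Other genes of the pathway were read from a list of 68 ligands, coreceptors, SMADs, antagonists and targets, of which 36 were on the array and 25 were detected on at least 1 LCM array and tested. None of the 25 passed the threshold of the limma fit. By sign alone, signals under the limits included, 4 of 25 were higher in GC at all 3 stages and 3 of 25 in oocytes, against 16.5% and 19.9% of all genes tested, and the median oocyte minus GC difference was -0.10 against 0.05 over all 6284 genes.

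Among the antagonists, 6 of 19 listed were tested. Follistatin (FST), which binds activins and keeps them from ACVR2A and ACVR2B, read 15.2, 111 and 51.4 in oocytes and 107, 410 and 776 in GC, with PDO and SECO under the limits. Its fitted difference of -2.35 ± 0.42 (SE; limma adjusted p = 0.406) rests partly on these unmeasured signals and is no bound. LTBP1, which holds latent TGF-beta in the matrix, was detected on all 3 GC arrays (144, 90.8 and 57.1) and on no oocyte array (limma adjusted p = 0.406). Averaged over the 3 stages on the log2 scale, its GC signal was at least 1.42-fold higher, with the detection limits taken for the oocytes. At the secondary stage alone no bound can be given, since 57.1 on SECG was under the SECO limit of 67.6. FSTL3, a relative of follistatin, ran the other way, at 60.9, 56.6 and 50.6 in oocytes, of which PDO was above the limit, and 15.7, 30.9 and 34.4 in GC, all under the limits, so no fold is given (adjusted p = 0.462).

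Of the ligands, 9 of 19 were tested. INHA, the inhibin alpha subunit, read 27.4, 105 and 62.6 in oocytes and 36.7, 200 and 617 in GC, with PDO, SECO and PDG under the limits. Its fitted difference was -1.34 ± 0.52 (SE; limma adjusted p = 0.423), with the same limit as for FST. GDF9 was detected on all 6 arrays at 259, 476 and 162 in oocytes and 282, 240 and 169 in GC, which overlapped. BMP15 was detected on PMO alone, at 82.8, and AMH, the ligand of AMHR2, was not detected on any of the 10 arrays.

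Of the other receptors and coreceptors, 2 of 10 were tested. BAMBI, a pseudoreceptor that lacks the kinase domain and dampens signalling, read 824, 559 and 516 in oocytes and 624, 462 and 368 in GC, higher in oocytes at each stage, a difference of 0.37 ± 0.30 (SE; limma adjusted p = 0.658). ACVRL1, a type I receptor of endothelium, was detected on PDO alone, at 74.2, with the other 5 signals at 8.36 to 33.3, under the limits and without an order.

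Downstream of the receptors, 3 of 8 SMADs and 5 of 12 targets were tested, and 0 of these 8 genes kept 1 sign over the 3 stages. SMAD2, SMAD3 and SMAD4 were detected on all 6 arrays, with oocyte minus GC differences of -0.10, 0.28 and -0.44. The targets ID2, ID3 and TSC22D1 were also detected on all 6 arrays, with differences of -0.28, 0.22 and -0.09.

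**Figure D5:**
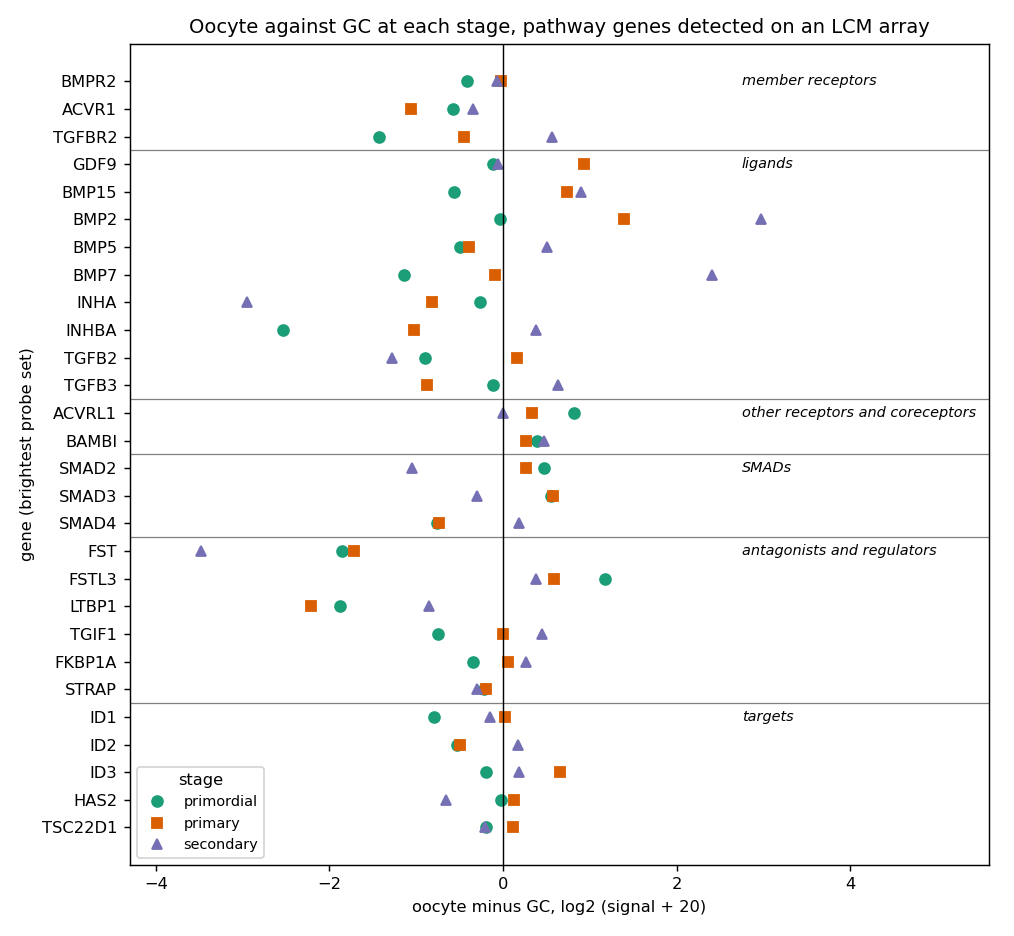
Oocyte minus GC difference on the log2(signal + 20) scale at the primordial (circles), primary (squares) and secondary (triangles) stage, for the 3 receptors and the 25 pathway genes detected on an LCM array, grouped by role; each point is 1 pair of arrays, so there is no error bar. FST, LTBP1 and INHA lie left of 0 at all 3 stages, and most genes have points on both sides of 0.

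The genes most like a receptor were sought by Pearson's r over the 6 LCM arrays among 5425 probe sets detected on at least 3 of them. For TGFBR2 these were CLIC2 (r = 0.989), PRCP (0.987) and ATP5MG (0.982), which were all highest on PDG, and 43 probe sets had r above 0.9. For BMPR1B they were PDHX (0.969), ISG20L2 (0.967) and PEF1 (0.967), and 27 probe sets had r above 0.9, but the BMPR1B signals were all under the limits. The 6 points share RNA pools and amplification, and with 6 points among 5425 probe sets such r values are a description.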

How the data were processed

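Oocytes, GC and whole fetal ovary were hybridised to a bovine Affymetrix array. The authors deposited linear MAS 5.0 signal intensity values (GCOS), scaled to a trimmed mean of 100 with 2% trimmed. Affymetrix control probe sets (112) were left out. Annotation gave 1 symbol to 13292 of 24016 probe sets, several to 86 and none to 10638. Detection used the percentages of present calls of the study's supplement, because calls per probe set were not used here; precision is limited by the number of arrays. Signals were tested as log2(signal + 20) with limma 3.58.1 (R 4.3.3; lmFit, eBayes; compartment and stage; two-sided; Benjamini-Hochberg over 11642 probe sets; threshold 0.05), with the 3 stages of a compartment as its replicates; the script was tested on simulated data. A gene was read by its brightest probe set, the one with the highest mean log2(signal + 20) over the 6 LCM arrays, also where whole ovary arrays were compared. All receptor probe sets were described. Of the pathway genes, those named were the 3 per direction with the largest difference of 1 sign at all stages and GDF9, BMP15, AMH and FST; the SMADs and targets detected on all 6 arrays were named after their values were seen. Alternatives changed the constant, the scaling, the filter, the probe set rule, the detection rule and the stages used. Members, lists and tests were chosen with earlier results of these data known. No sequences or coordinates are given.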

Additional observations from a re-analysis of the deposited data

Results flagged for a closer look

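TGFBR2 (Bt.1789.1.S1_at) changed from primordial to secondary follicles by 0.079 in oocytes and by -1.92 in GC on the log2(signal + 20) scale. The GC signal was lower on SECG than on PDG, while the oocyte value is a 1.06-fold difference with no measured spread. Each value is 1 array against 1 array, and the difference between the compartments was not tested. The signs of the 2 values differ, which is why they are listed. Sums of stroma, endothelium and smooth muscle markers were highest on PDG, as was TGFBR2, and their part in the result was not tested. Sums of the other marker lists were highest on other arrays.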

How the results depend on the processing

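Of 24 alternatives for counts of receptor genes without a test, 17 left the count within 1.5 times its value; the other 20 alternatives concern limma counts of 0, which stayed at 0 in a design where no probe set passed, and say nothing about stability. The 2 genes higher in GC at all 3 stages became 1 with signals under 20 set to 20 and 1 with the log2 values of its probe sets averaged for each gene. The 3 genes detected on an LCM array became 1 when all probe sets of a gene had to be detected on the same array, a rule added after seeing the data. The 3 genes past 2-fold between ovine and bovine ovary became 1 at a fold of 3. The 5 genes past 2-fold between P3 and P1 became 1 with a constant of 50, 3 with quantile normalization and 1 at a fold of 3. Of 60 alternatives for single genes 59 kept their direction, and their side of the threshold is not informative here; the oocyte minus GC difference of TGFBR2 ran from -0.94 to 0.057 when each stage was left out, with 0.057 without the primordial stage. Over the alternatives the adjusted p (limma) was 0.367 to 0.972 for ACVR1 and 0.436 to 0.988 for TGFBR2 between compartments, and 0.189 to 0.676 for BMPR2 between stages. The stage term pairs the oocyte and GC arrays of a stage; without it 0 receptor genes passed, with an adjusted p of 0.612 for ACVR1. Single arrays and detection limits under P3 restrict what can be seen of dim receptors.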
